A study of Mus musculus with 10 samples.

Results

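The 10 genes described here handle phosphate or set the balance between mineral formation and its inhibition in bone: Phex, Fgf23, Fam20c, Enpp1, Ank, Alpl, Phospho1, Slc20a1, Slc20a2 and Galnt3. They were chosen by gene name, and all 10 are listed among the 22548 genes measured. All 10 also had counts high enough to be tested, as had 16186 genes in all. Whole-transcriptome RNA-seq was performed on osteocytes, the cells embedded in mineralized bone, from 5 control mice that received no myeloma cells (No MM) and 5 mice that had been injected in the femur with Vk12598 murine myeloma cells (MM). In the paper's methods, control mice of this model received an equal volume of PBS. All mice were male C57BL/6 aged 8 weeks per the labels, no gene was altered in either group, and the labels give no time after injection. The cells came from trabecular bone pieces, cleared of marrow, by repeated digestion with EDTA and collagenase, and no sort or gate is named. Control libraries are called No MM 1 to No MM 5 and myeloma libraries MM 6 to MM 10. Each library is 1 sample, so p-values measure the spread between these samples.

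Bone mineral forms where phosphate and calcium are abundant and pyrophosphate, which blocks crystal growth, is scarce. Osteocytes also act on the whole body by secreting FGF23, a hormone that makes the kidney excrete phosphate. Fam20c and Galnt3 modify this hormone, and loss of Phex raises it. Enpp1 and Ank supply extracellular pyrophosphate, Alpl and Phospho1 release phosphate for mineral, and Slc20a1 and Slc20a2 carry phosphate into cells.

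The 250 bases upstream of the annotated start (RefSeq, GRCm38.p6, 5′ to 3′) are shown for 3 genes: Phex and Phospho1, whose spread relative to the bone-forming genes was smallest across the 10 libraries, and Enpp1, which did the opposite in 2 control libraries. Of the 10 genes, 9 were matched to a promoter window. Both strands of these 250 bases were searched for the letters TGTGGT, which read ACCACA on the other strand and are the core that Runx factors, the regulators of bone-forming cells, are known to bind. The letters, set in capitals where present, occurred in 14.18% of the upstream windows of 27025 genes and in 2 of the 9 matched genes, Enpp1 and Slc20a1. A match is a description of the letters, and its absence says only that these letters are not in this window.
Phex, chrX:157415287-157415536, minus strand: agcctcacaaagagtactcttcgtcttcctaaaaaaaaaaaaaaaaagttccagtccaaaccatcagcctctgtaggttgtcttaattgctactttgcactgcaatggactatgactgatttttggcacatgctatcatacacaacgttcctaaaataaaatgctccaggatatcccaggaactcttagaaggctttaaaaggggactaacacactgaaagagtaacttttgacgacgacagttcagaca
Phospho1, chr11:95824250-95824499, plus strand: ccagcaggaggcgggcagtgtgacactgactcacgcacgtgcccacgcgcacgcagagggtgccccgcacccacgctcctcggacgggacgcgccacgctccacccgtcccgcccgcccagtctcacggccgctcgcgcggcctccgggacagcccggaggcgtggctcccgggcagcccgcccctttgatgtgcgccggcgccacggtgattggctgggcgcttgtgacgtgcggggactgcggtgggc
Enpp1, chr10:24712160-24712409, minus strand: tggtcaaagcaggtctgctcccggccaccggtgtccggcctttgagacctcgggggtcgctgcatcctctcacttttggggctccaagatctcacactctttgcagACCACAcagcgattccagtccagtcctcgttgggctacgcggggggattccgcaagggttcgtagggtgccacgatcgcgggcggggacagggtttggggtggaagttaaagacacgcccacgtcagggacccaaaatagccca
G and C made up 39.2% of the Phex stretch, which held 4 CG pairs, and 75.6% of the Phospho1 stretch, which held 34. The Enpp1 stretch lay between them at 61.2% with 17 CG pairs, and its ACCACA began 144 bases before the start.

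A pair of control libraries stood apart from the other 8, and the comparisons between groups below are given with and without them. The 9 measured plasma cell markers summed to 4182 CPM (read counts scaled to library size) in No MM 3 and 4006 CPM in No MM 4, against 398.5 to 726.2 CPM in the other 8. The 10 bone-forming genes of an osteoblast lineage list, among them the collagen genes Col1a1 and Col1a2 and the transcription factor genes Runx2 and Sp7, summed to 4201 and 2366 CPM there, against 15890 to 57900 CPM elsewhere. The 10 osteocyte markers, Sost, Dmp1 and Mepe among them, were detected. They summed to 746.8 and 593.5 CPM there against 906.6 to 2995 CPM elsewhere, but single markers differed. Dmp1, at 126.1 and 111.7 CPM, was lowest in the pair. Sost was at 157.6 and 109.6 CPM there but at 68.3 in MM 8 and 99.97 in MM 10. Mepe was at 113.7 and 63.6 CPM there but at 49.5 in MM 8. Cd44, at 226.6 and 218.6 CPM, lay just below the 226.8 to 321.5 CPM elsewhere. Immunoglobulin genes took 26.6% and 29% of counts there, against 0.637% to 3.86% elsewhere. Markers of other cells were present in all 10 libraries, and several were also lowest in this pair. The 10 neutrophil markers summed to 7567 and 8827 CPM there against 12540 to 35960 CPM elsewhere. For the 8 measured erythroid markers it was 902.2 and 3101 against 7359 to 57900 CPM, and for the 8 osteoclast markers 1101 and 979.9 against 2814 to 14200 CPM. The 8 skeletal muscle markers, at 3981 and 1765 CPM, and the 8 endothelial markers, at 475.3 and 329.9 CPM, lay within the range of the other libraries. In bulk RNA, fewer cells of a type and less RNA per cell cannot be told apart. Between 31099174 and 39466332 reads were counted per library. At the library sizes after normalization, on which CPM rests, 3 counts correspond to 0.0709 to 0.114 CPM.

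Per length of the gene, Alpl, which encodes tissue-nonspecific alkaline phosphatase, was the most abundant of the 10, at 106.6 ± 79.4 RPKM (CPM per kilobase of gene length, SD, n = 10). It was above Ank in 10 of 10 libraries. Ank at 34.3 ± 15.1, Slc20a1 at 25.1 ± 6.39, Fam20c at 20.5 ± 9.07 and Phex at 19.9 ± 13.2 RPKM followed, and among these 4 each was above the next in only 4 to 6 of 10 libraries, so that their order lay within the spread between libraries. Enpp1 was at 14.0 ± 9.89 RPKM and was below Phex in 8 of 10 libraries. Slc20a2 at 9.53 ± 1.44 RPKM was below Enpp1 in 6 of 10 libraries and above Galnt3, at 3.83 ± 1.64 RPKM, in 10 of 10. The matrix vesicle phosphatase gene Phospho1, at 1.34 ± 0.855 RPKM, and the hormone gene Fgf23, at 1.12 ± 0.698 RPKM, were the lowest, and Phospho1 was the higher of these in 7 of 10 libraries. Over the 8 libraries without No MM 3 and No MM 4, Alpl was again the highest in 8 of 8, while Phex came before Fam20c and Slc20a2 before Enpp1, which was then at 9.53 ± 2.16 RPKM (SD, n = 8).

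**Figure D1:**
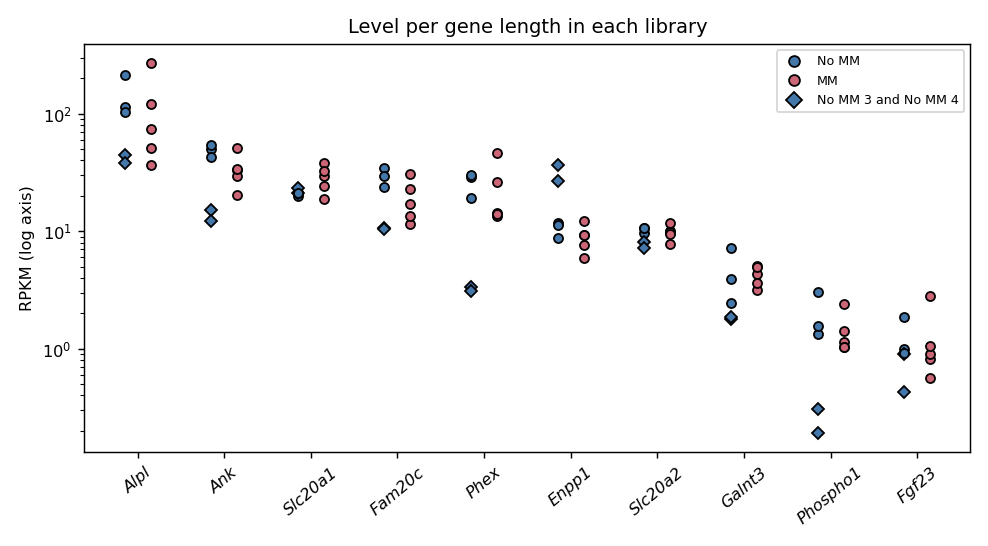
Level of each gene per length in every library, as RPKM on a log axis, with genes in the order of their mean. Alpl lies at the top with a mean of 106.6 RPKM and Fgf23 at the bottom with 1.12, and the diamonds of No MM 3 and No MM 4 lie at the low end for Phex and Phospho1 and at the high end for Enpp1.

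None of the 10 genes differed between MM and No MM after correction. edgeR's quasi-likelihood test called 0 of 16186 genes at an adjusted p under 0.05, which is 0% in each direction, and the smallest adjusted p was 0.314. At an unadjusted p under 0.05, 3.81% of all tested genes were higher and 10.3% lower in MM, and 1 of the 10 members was higher (Slc20a1) and 1 lower (Enpp1). The groups did not overlap in CPM, MM higher, for 0.729% of tested genes and, MM lower, for 0.68%, and for 0 of the 10. DESeq2 gave 34 higher (0.21%) and 155 lower genes (0.958%) after adjustment, and 0 of the 10. Unadjusted, it gave 5.34% of genes higher and 11.5% lower, and the same 1 member in each direction. The median log2 fold change of the 10 was 0.12, with 7 above 0 and 3 below, beside −0.03 over all tested genes. Without No MM 3 and No MM 4 it was −0.24, with 1 above 0 and 9 below, beside −0.02, and 0 of the 10 passed an unadjusted p under 0.05 where 2.51% of genes were higher and 3.37% lower. The direction of most members thus depended on whether these 2 control libraries were included.

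**Figure D2:**
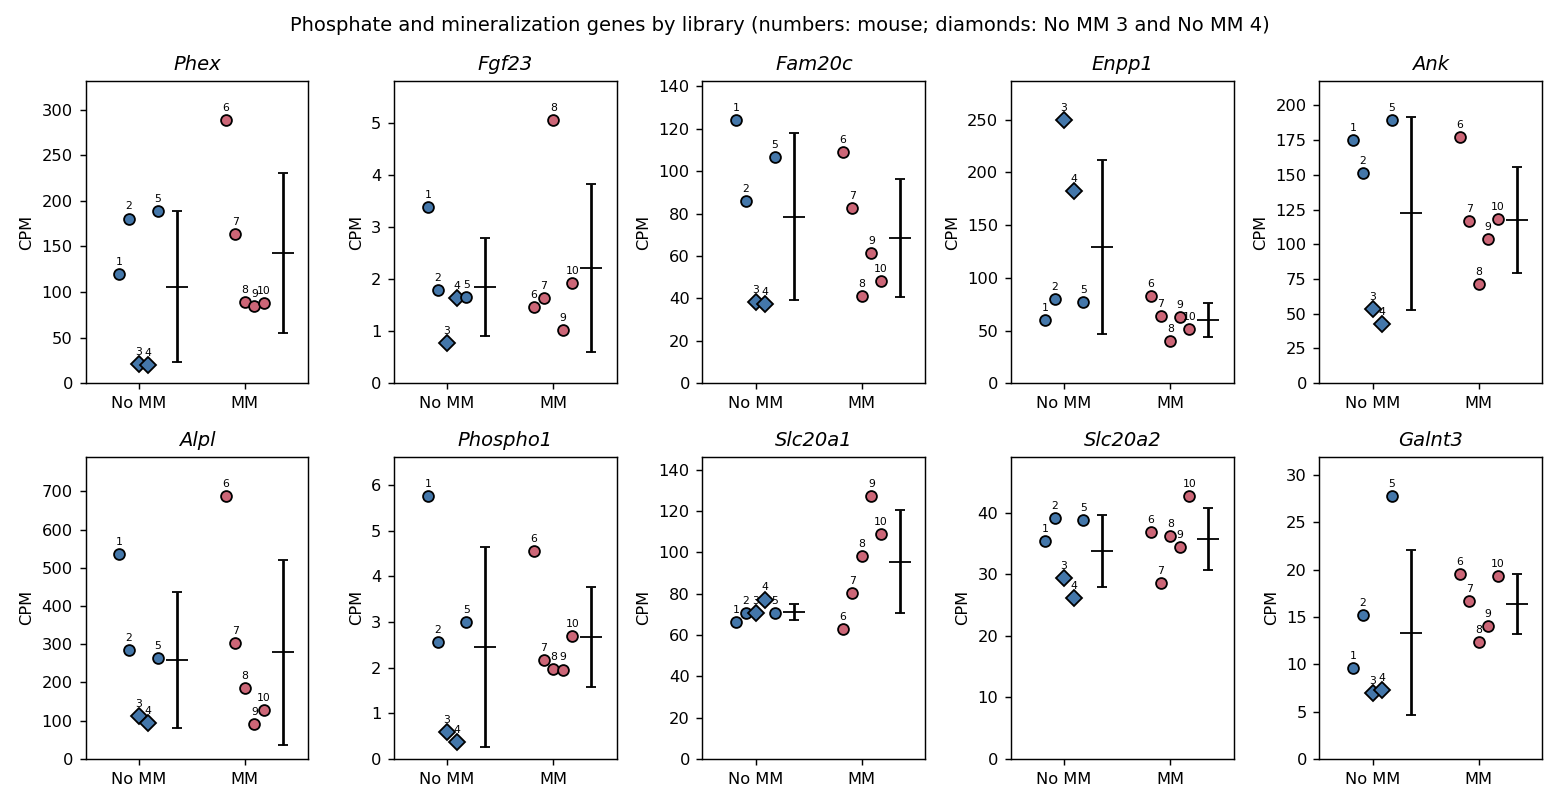
CPM of each gene in the 5 No MM (blue) and 5 MM (red) libraries, each point labelled with its mouse number and diamonds marking No MM 3 and No MM 4. Bars give the mean and SD of each group, and the groups overlap in all 10 panels.

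**Figure D3:**
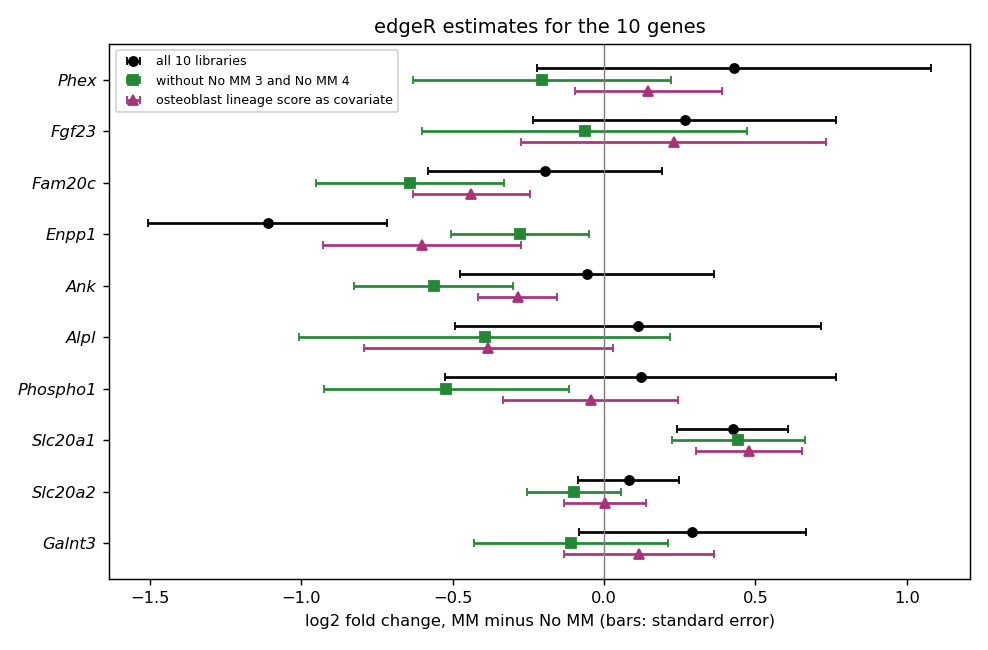
edgeR log2 fold changes of the 10 genes, MM minus No MM, with bars for the standard error, from all 10 libraries, without No MM 3 and No MM 4, and with the osteoblast lineage score as a covariate. Enpp1 moves from −1.11 to −0.28 when the 2 libraries are left out, and Slc20a1 lies between 0.43 and 0.48 in the 3 settings drawn, although both changes together gave 0.20.

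Phex (ENSMUSG00000057457, chrX:157162075-157415312, minus strand) encodes a membrane endopeptidase of osteoblasts and osteocytes whose loss raises FGF23 and causes X-linked hypophosphatemia. Its level was 120.3, 180.7, 20.9, 19.6 and 188.7 CPM in No MM 1 to No MM 5 and 288.3, 163.8, 89.4, 85.0 and 87.8 CPM in MM 6 to MM 10. No MM 3 and No MM 4 were the lowest of all and MM 6 the highest, and the remaining libraries of both groups overlapped. The means were 106.0 ± 82.7 and 142.9 ± 87.8 CPM (SD, n = 5 each), and the log2 fold change was 0.43 (SE 0.65, edgeR adjusted p = 0.783). Single libraries moved this estimate, to 0.0058 without MM 6 and to 0.74 without No MM 5. Without No MM 3 and No MM 4 it was −0.21 (SE 0.43, edgeR adjusted p = 0.863).

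Fgf23 (ENSMUSG00000000182, chr6:127072902-127081408, plus strand), the phosphate-regulating hormone, was detected at a low level in every library. Its CPM was 3.39, 1.80, 0.775, 1.63 and 1.67 in No MM 1 to No MM 5 and 1.47, 1.65, 5.06, 1.02 and 1.93 in MM 6 to MM 10, from 24 to 214 counts per library. MM 8 was highest and No MM 3 lowest, and the other values of the groups were interspersed. MM over No MM was 0.27 on the log2 scale (SE 0.50, edgeR adjusted p = 0.828), −0.06 without No MM 3 and No MM 4, and −0.29 without MM 8.

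Fam20c (ENSMUSG00000025854, chr5:138754514-138810077, plus strand) encodes the Golgi kinase that phosphorylates secreted proteins, FGF23 and matrix phosphoproteins among them. It was at 123.9, 85.8, 38.5, 37.3 and 106.6 CPM in No MM 1 to No MM 5 and at 109.2, 82.7, 41.2, 61.3 and 48.4 CPM in MM 6 to MM 10. The groups overlapped, and MM 7, MM 8, MM 9 and MM 10 lay between the pair of No MM 3 and No MM 4 and the other controls. Its log2 fold change was −0.19 (SE 0.39, edgeR adjusted p = 0.839), and −0.64 (SE 0.31, unadjusted p = 0.069, edgeR adjusted p = 0.644) without No MM 3 and No MM 4, the lowest estimate among the 10 genes in that comparison.

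Galnt3 (ENSMUSG00000026994, chr2:66082766-66124994, minus strand) encodes the glycosyltransferase that protects intact FGF23 from cleavage. Its level was 9.60, 15.2, 6.95, 7.30 and 27.8 CPM in No MM 1 to No MM 5 and 19.5, 16.7, 12.3, 14.0 and 19.3 CPM in MM 6 to MM 10. The MM libraries were tightly grouped and lay within the range of the controls, whose spread was wider (13.4 ± 8.71 against 16.4 ± 3.18 CPM, SD, n = 5 each). On the log2 scale, MM over No MM was 0.29 (SE 0.38, edgeR adjusted p = 0.739), and −0.11 without No MM 3 and No MM 4. Without No MM 5, the highest control, it was 0.75 (edgeR unadjusted p of 0.0247, adjusted p = 0.164, exact permutation p = 0.0397). In that setting 1276 of 16353 tested genes were higher at an unadjusted p under 0.05, against 617 of 16186 with all libraries. Without No MM 3 the log2 fold change of Galnt3 was 0.13.

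Enpp1 (ENSMUSG00000037370, chr10:24637914-24712159, minus strand) encodes the ectoenzyme that forms pyrophosphate from extracellular ATP and was first known as the plasma cell antigen PC-1. Its level was 59.8, 79.6, 249.3, 182.6 and 76.8 CPM in No MM 1 to No MM 5 and 82.5, 63.5, 39.8, 62.7 and 51.8 CPM in MM 6 to MM 10. No MM 3 and No MM 4 were far above all other libraries, and the 3 remaining controls lay within the range of the MM group. The group means were 129.6 ± 82.6 and 60.1 ± 15.8 CPM (SD, n = 5 each), with a log2 fold change of −1.11 (SE 0.39, unadjusted p = 0.0169, edgeR adjusted p = 0.314). The adjusted p lay between 0.119 and 0.879 over 20 alternative analyses, and the exact permutation test of mean log2 CPM gave p = 0.0794 (two-sided, smallest possible 0.00794). Without No MM 3 and No MM 4, the control mean was 72.1 ± 10.8 CPM (SD, n = 3) and the log2 fold change −0.28 (SE 0.23, edgeR adjusted p = 0.684), with an exact permutation p of 0.339 (smallest possible 0.0179). Of the 10 members, Enpp1 was the one with its highest levels in the 2 libraries where the plasma cell markers were highest, and with the plasma cell marker score as a covariate its log2 fold change was −0.14 (edgeR unadjusted p of 0.597). With the osteoblast lineage score as a covariate it was −0.60 (edgeR unadjusted p of 0.0953), so that the unadjusted call was lost with either score. The part of plasma cell RNA in the result was not tested.

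Ank (ENSMUSG00000022265, chr15:27466677-27594909, plus strand) encodes the membrane protein through which pyrophosphate or its precursor ATP leaves the cell. It was at 174.7, 151.2, 53.2, 42.7 and 189.1 CPM in No MM 1 to No MM 5 and at 177.3, 116.8, 71.3, 104.1 and 118.2 CPM in MM 6 to MM 10. In contrast to Enpp1, No MM 3 and No MM 4 were the lowest libraries, and of the MM libraries only MM 6 exceeded No MM 2. An exon of the microRNA gene Mir7117 overlaps Ank on the same strand. For Ank the log2 fold change was −0.06 (SE 0.42, edgeR adjusted p = 0.964), and −0.56 (SE 0.26, unadjusted p = 0.0607, edgeR adjusted p = 0.644) without No MM 3 and No MM 4.

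Alpl (ENSMUSG00000028766, chr4:137741733-137796384, minus strand) encodes the phosphatase that splits pyrophosphate and so removes the inhibitor. Its level was 536.1, 285.8, 112.3, 95.1 and 263.0 CPM in No MM 1 to No MM 5 and 687.6, 303.7, 185.7, 92.3 and 127.9 CPM in MM 6 to MM 10. It was high in 1 library of each group, No MM 1 and MM 6, and the lowest library was MM 9, so that the groups overlapped over nearly their whole range. Its log2 fold change was 0.11 (SE 0.60, edgeR adjusted p = 0.946), −0.39 (SE 0.61) without No MM 3 and No MM 4, and −0.54 without MM 6.

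Phospho1 (ENSMUSG00000050860, chr11:95824499-95832140, plus strand) encodes the phosphatase that releases phosphate inside matrix vesicles at the start of mineralization. Its level was 5.75, 2.56, 0.582, 0.363 and 2.99 CPM in No MM 1 to No MM 5 and 4.55, 2.16, 1.96, 1.96 and 2.68 CPM in MM 6 to MM 10. It rested on only 10 to 176 counts per library, and its annotated exons overlap those of Zfp652 on the same strand and Abi3 on the other. No MM 3 and No MM 4 were lowest, and the other 3 controls overlapped the MM libraries. The log2 fold change was 0.12 (SE 0.65, edgeR adjusted p = 0.946), and −0.52 (SE 0.41) without No MM 3 and No MM 4.

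Transcripts of the enzymes that remove and form pyrophosphate were compared within each library as log2 CPM of Alpl minus that of Enpp1. Enzyme activity and pyrophosphate were not measured, and in bulk RNA these transcripts can come from different cells. The difference was 3.16, 1.84, −1.15, −0.94 and 1.78 in No MM 1 to No MM 5 and 3.06, 2.26, 2.22, 0.56 and 1.30 in MM 6 to MM 10. It was lowest in No MM 3 and No MM 4, and the groups overlapped. CPM does not account for the length of the genes, and per length, in RPKM, Alpl was above Enpp1 in 10 of 10 libraries. The means were 0.94 ± 1.90 and 1.88 ± 0.97 (SD, n = 5 each, exact permutation p = 0.341). Without those 2 libraries, the control mean was 2.26 ± 0.78 (SD, n = 3) and the difference was −0.38 (exact permutation p = 0.554).

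Slc20a1 (ENSMUSG00000027397, chr2:129198764-129211616, plus strand) encodes the sodium-phosphate cotransporter PiT-1. Its level was 66.4, 70.7, 70.6, 77.2 and 70.7 CPM in No MM 1 to No MM 5 and 62.7, 80.2, 98.3, 127.2 and 108.9 CPM in MM 6 to MM 10. The controls were nearly level, No MM 3 and No MM 4 included, 4 of 5 MM libraries lay above every control, and MM 6 lay below every control. The means were 71.1 ± 3.87 and 95.5 ± 25.0 CPM (SD, n = 5 each), with a log2 fold change of 0.43 (SE 0.18, unadjusted p = 0.0408, edgeR adjusted p = 0.34). The adjusted p lay between 0.218 and 0.795 over 20 alternative analyses, and the exact permutation p was 0.0794. The estimate was 0.44 (SE 0.22, edgeR adjusted p = 0.644) without No MM 3 and No MM 4, with an exact permutation p of 0.125, and it was 0.48 with the osteoblast lineage score as a covariate (unadjusted p = 0.0205, edgeR adjusted p = 0.43). With the score as a covariate and without No MM 3 and No MM 4, a setting added after seeing the data, it was 0.20 (SE 0.19, unadjusted p = 0.338, edgeR adjusted p = 0.735). Without MM 6 the groups did not overlap, which in that setting also held for 2.74% of tested genes with MM higher and 2.62% with MM lower. The exact permutation p was then 0.00794, the smallest that 4 against 5 libraries can give, and the edgeR adjusted p = 0.304. Without MM 9 the log2 fold change was 0.30 (edgeR adjusted p = 0.579). Exons of the uncharacterized genes 9830144P21Rik and Gm4430 overlap those of Slc20a1 on the opposite strand.

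Slc20a2 (ENSMUSG00000037656, chr8:22476700-22569607, plus strand), which encodes the related cotransporter PiT-2, was the most even of the 10 genes. Its level was 35.5, 39.2, 29.4, 26.1 and 38.9 CPM in No MM 1 to No MM 5 and 36.8, 28.6, 36.3, 34.4 and 42.7 CPM in MM 6 to MM 10. The groups overlapped almost fully, and the highest library was 1.64 times the lowest. The log2 fold change was 0.08 (SE 0.17, edgeR adjusted p = 0.844), and −0.10 without No MM 3 and No MM 4. The exons of Smim19 overlap those of Slc20a2 on the opposite strand.

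The 10 genes differed in how their spread changed when the level of the bone-forming genes of the same library was subtracted. Subtraction takes a gene to move in equal steps with these genes. A gene that follows them over a narrower range can therefore keep a wide spread, so the values below do not measure closeness alone. The osteoblast lineage score, the mean log2 CPM of the 10 bone-forming genes, was 9.99, 9.51, 6.83, 6.26 and 10.30 in No MM 1 to No MM 5 and 10.52, 9.39, 8.74, 8.71 and 9.49 in MM 6 to MM 10. Across the 10 libraries the SD of log2 CPM of Phex was 1.30, and that of its difference from the score was 0.40. For Phospho1 these values were 1.17 and 0.42. The SD of Ank was 0.75 and 0.72, and that of Alpl 1.02 and 0.92. For the other 6 genes the spread grew, from 0.81 to 2.07 for Enpp1 and from 0.34 to 1.50 for Slc20a1. Among the 8 libraries without No MM 3 and No MM 4 the spread relative to the score was smaller for 5 genes, with 0.64 and 0.42 for Phex, 0.56 and 0.40 for Phospho1, 0.58 and 0.40 for Fam20c, 0.48 and 0.31 for Ank, and 0.97 and 0.62 for Alpl. It was larger for Fgf23, Enpp1, Slc20a1, Slc20a2 and Galnt3.

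Relative to the score, MM minus No MM was 0.05 for Phex (exact permutation p = 0.833), −0.15 for Phospho1 (p = 0.603), −0.91 for Fam20c (p = 0.151), −0.66 for Ank (p = 0.19) and −0.78 for Alpl (p = 0.19), each on the log2 scale. The other 5 lay between −1.72 for Enpp1 (exact permutation p = 0.333) and −0.32 for Galnt3 (p = 0.619). Without No MM 3 and No MM 4 the difference was 0.21 for Phex (exact permutation p = 0.464), 0.082 for Phospho1 (p = 0.804), −0.14 for Fam20c (p = 0.679), −0.040 for Ank (p = 0.857) and −0.11 for Alpl (p = 0.714), and the other 5 lay between 0.27 for Enpp1 (p = 0.536) and 0.98 for Slc20a1 (p = 0.179). With the score as a covariate in edgeR, the estimate was −0.44 for Fam20c (unadjusted p = 0.0466, adjusted p = 0.43). Without No MM 3 and No MM 4 it was −0.37 (edgeR unadjusted p of 0.184), past neither threshold.

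**Figure D4:**
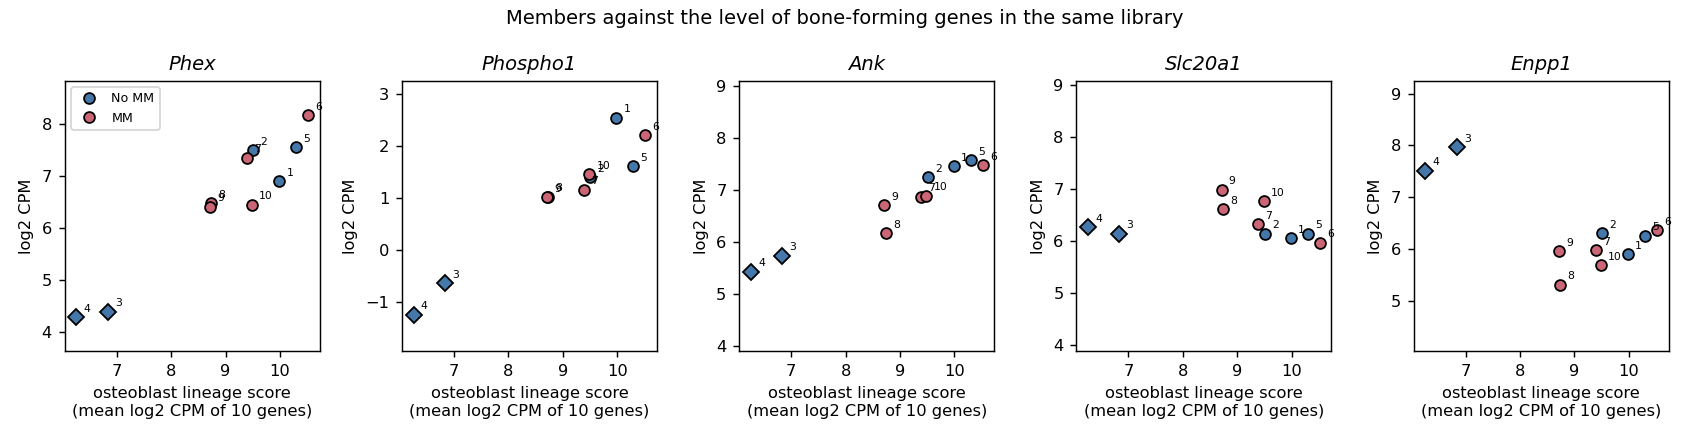
Log2 CPM of 5 members against the osteoblast lineage score, the mean log2 CPM of 10 bone-forming genes, with 1 point per library and diamonds for No MM 3 and No MM 4. Phex, Phospho1 and Ank lie along a rising band in both groups, and Enpp1 is highest in the 2 libraries with the lowest score. Slc20a1 stays nearly level in No MM. In MM it runs from 5.97 in MM 6, with the highest score, to 6.99 in MM 9, with the lowest MM score.

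By profile across the 10 libraries, the genes most like Phex in log2 CPM were C2cd4c (Pearson r = 0.993, 0.978 over the 8 libraries without No MM 3 and No MM 4), Col25a1 (0.987 and 0.961) and Ptgfr (0.984 and 0.927). Those most like Phospho1 were Lbh (0.991 and 0.962), Col1a1 (0.982 and 0.893) and Slc37a2 (0.980 and 0.930). Enpp1 was most like Fam212b (0.988 and 0.915), Avil (0.979 and 0.914) and Paip2b (0.973 and 0.875). The gene most like Alpl was Calcr (0.965 and 0.976), the calcitonin receptor gene, and that most like Slc20a1 was Mrm1 (0.959 and 0.964). These values share libraries, depth and cell makeup, were picked as the highest among all tested genes and describe the profiles without a test.

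Further genes of the hormone pathway did not differ after correction. Of 18 listed genes, 16 were measured and 11 tested. None of the 11 was higher and 1 was lower by the unadjusted edgeR p under 0.05, beside 3.81% and 10.3% of all tested genes, and the median log2 fold change was 0.17. In the 8 libraries without No MM 3 and No MM 4, 13 were tested, 0 passed in either direction and the median was −0.21. The 1 lower gene was Cyp27b1, which encodes the enzyme that activates vitamin D. It was at 0.0381, 0.31, 2.75, 2.61 and 1.05 CPM in No MM 1 to No MM 5 and at 0.31, 0.19, 0.21, 0.30 and 0.36 CPM in MM 6 to MM 10 (log2 fold change −2.28, SE 0.81, edgeR adjusted p = 0.314). Like Enpp1, it was highest in No MM 3 and No MM 4, and its log2 fold change without them was −0.80 (SE 0.71, edgeR adjusted p = 0.700). The genes next in order were those of the FGF receptors Fgfr3 (log2 fold change 0.65) and Fgfr2 (0.53) and of the phosphate exporter Xpr1 (0.26), with edgeR unadjusted p-values from 0.259 to 0.324. The co-receptor gene Kl and the genes Fgfr4, Slc34a1 and Cyp24a1, which act mainly in kidney and liver, stayed under 1 CPM in every library.

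Among 13 genes of a list of pyrophosphate, phosphatase and phosphodiesterase genes, which also held Abcc6, Smpd3 and Acp5, 12 were tested. By the same measure 0 of them were higher and 2 lower, beside the same 3.81% and 10.3%, and the median log2 fold change was −0.22. Leaving out No MM 3 and No MM 4, 0 were higher and 2 lower (Ppa1 and Enpp3, the latter named after its values were seen), beside 2.51% and 3.37% of all genes, with a median of −0.29. Ppa1, the cytosolic pyrophosphatase, was at 73.6, 45.8, 109.3, 77.7 and 45.6 CPM in No MM 1 to No MM 5 and at 41.6, 37.7, 37.3, 36.4 and 31.5 CPM in MM 6 to MM 10. Every MM library lay below every control, which also held for 0.68% of all tested genes. The log2 fold change was −0.93 (SE 0.24, edgeR unadjusted p = 0.0025, adjusted p = 0.314). Without No MM 3 and No MM 4 it was −0.60 (SE 0.19, unadjusted p = 0.0125, edgeR adjusted p = 0.644). Entpd1, the ectonucleotidase CD39, was at 70.0, 70.0, 181.6, 178.7 and 54.2 CPM in the controls and at 51.6, 71.1, 46.2, 57.0 and 57.3 CPM in MM (log2 fold change −0.97, SE 0.35, unadjusted p = 0.0179). It too was highest in No MM 3 and No MM 4, the other libraries overlapped, and the log2 fold change without the pair was −0.21 (edgeR unadjusted p of 0.254). Enpp4 (log2 fold change −0.80) and Enpp5 (−0.45) did not pass, with edgeR unadjusted p-values from 0.0645 to 0.0657, and without the pair they were at 0.11 and −0.36. The last list held genes for mineral-binding and mineral-inhibiting proteins and related genes such as Fam20a, Fam20b and Car2. Of its 13 tested genes, 0 passed in either direction, with a median log2 fold change of 0.07. The 4 nearest to the threshold were the keratan sulfate proteoglycan gene Omd (0.78), Fam20b (−0.11), Mgp (−0.20) and Ahsg (0.57). Their edgeR unadjusted p-values ran from 0.0969 to 0.585. In the other 8 libraries the median of these 13 was −0.52, with 0 higher and 1 lower (Fam20a, −0.56, edgeR unadjusted p of 0.0463, named after its values were seen).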

How the data were processed

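RNA-seq of 10 osteocyte libraries, 5 No MM and 5 MM, was analyzed from 1 table, with groups taken from the sample labels. Per the labels, libraries were made with a stranded total RNA kit, and the submitters' processing notes name FastQC 0.11.5 and STAR. The counting program, its strand setting, annotation and genome build are not given in the sources used here. The gene coordinates in the table are on GRCm38, and 9 of the 10 members had the same span in GENCODE M21. The authors deposited read counts per gene as whole numbers, which were used here. They also deposited a size-factor normalized signal, FPKM values, log2 fold changes and p-values of their own comparison, which were not analyzed. All per-sample columns were matched to a sample.

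Counts were analyzed in R 4.3.3 with edgeR 4.0.16 (filterByExpr, TMM, glmQLFit, glmQLFTest), with Benjamini-Hochberg adjustment over the 16186 genes that passed the filter and a threshold of 0.05. Log2 CPM used a prior count of 2, and RPKM is TMM-scaled CPM per kilobase of the deposited gene length. Single values were compared by two-sided exact permutation tests over the 252 assignments of 10 mice, or 56 for 3 against 5. Alternatives were DESeq2 1.42.0, RLE factors, upper-quartile factors, no filter and at least 10 counts in every library. Others were leaving out immunoglobulin genes, a prior count of 0.5, marker scores as covariates, and leaving out libraries. The osteoblast lineage score covariate without No MM 3 and No MM 4 was added after seeing the data. Scripts were tested on simulated counts. The total of 3 counts is the least that depth can show and covers counting error only. No 2 libraries agreed within sampling noise. The named genes are the 10 members with all values, the 4 lowest p-values of each pathway list, and for the most similar profiles the top 3 genes by Pearson r, of which the text gives a part. The members and lists were chosen with earlier results of these data known, and the lists serve as description only.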

Additional observations from a re-analysis of the deposited data

Results flagged for a closer look

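Within each group of 5 libraries, the highest and lowest values were compared with the others by their gap over the group's range. Of 42 sets of values checked, 2 held a library that stood apart, where chance gives about 1 in 20, or 2.1. Fgf23 in MM 8 was at 5.06 CPM, while the remaining MM libraries lay at 1.02 to 1.93 CPM, so that its gap to the nearest of them took up a share of 0.776 of the group's range (critical value 0.71). Phospho1 in MM 6 was at 4.55 CPM, while the remaining MM libraries lay at 1.96 to 2.68 CPM, a share of 0.722. MM 6 also had the highest Phex, Alpl and osteoblast lineage score of all libraries, and its 9 chondrocyte markers summed to 2299 CPM against 362.6 to 928 CPM in the remaining 4. The part of cell makeup in these values was not tested.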

How the results depend on the processing

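No paired analysis was possible because the labels number control mice 1 to 5 and myeloma mice 6 to 10, so the groups share no number. DESeq2 called 34 genes higher and 155 lower after adjustment, where edgeR called 0, and called 0 of the 10 members. Against 617 higher and 1664 lower genes at an unadjusted p under 0.05, 560 were lower without No MM 3 and No MM 4. The plasma cell score as covariate gave 234 higher and 313 lower, and the osteoblast lineage score without those 2 libraries gave 366 and 446. Of the members, 0 were higher under each of these 3 settings, and 0 were lower without No MM 3 and No MM 4, with or without the osteoblast lineage score. With the plasma cell score the 1 lower member was Ank (−0.68, edgeR unadjusted p of 0.0496) in place of Enpp1, and with the osteoblast lineage score it was Fam20c.

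The log2 fold changes that turned were, without No MM 3 and No MM 4, Phex −0.21, Fgf23 −0.064, Alpl −0.39, Phospho1 −0.52, Slc20a2 −0.10 and Galnt3 −0.11. With the plasma cell score they were Phex −0.41, Fgf23 −0.21, Alpl −0.45, Phospho1 −0.79, Slc20a2 −0.13 and Galnt3 −0.22, and with the osteoblast lineage score Alpl −0.38 and Phospho1 −0.044. With that score and without No MM 3 and No MM 4 they were Fgf23 −0.41, Alpl −0.061, Phospho1 −0.21 and Slc20a2 −0.073. Without these libraries the difference of mean log2 CPM was −0.35 for Phex, −0.19 for Fgf23, −0.60 for Ank, −0.67 for Alpl, −0.48 for Phospho1 and −0.091 for Slc20a2. Relative to the osteoblast lineage score it was 0.37 for Fgf23, 0.27 for Enpp1, 0.082 for Phospho1, 0.98 for Slc20a1, 0.47 for Slc20a2 and 0.58 for Galnt3, and for Alpl minus Enpp1 it was −0.38. The cause was not tested.

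Leaving out 1 library at a time, 291 to 1276 genes were higher and 939 to 2376 lower at an unadjusted p under 0.05, with 0 to 1 members in each direction and 0 to 1 with groups that did not overlap (Slc20a1 without MM 6, where 448 genes were higher and 428 lower in this way, against 118 and 110 with all libraries). Enpp1 lost its unadjusted call without No MM 3 (log2 fold change −0.73, edgeR unadjusted p of 0.0517), and Slc20a1 without any of No MM 1, No MM 2, No MM 3, No MM 5, MM 8, MM 9 and MM 10. Galnt3 gained an unadjusted call without No MM 5, the setting in which 1276 genes were higher. Its log2 fold change ran from 0.13 to 0.75 over these settings, and that of Phex from 0.0058 (without MM 6) to 0.74 (without No MM 5). The log2 fold change of Enpp1 ranged from −1.29 to −0.73 and that of Slc20a1 from 0.30 to 0.54, and the median of the members from −0.08 to 0.30. The log2 fold change turned for Fgf23 (−0.29 to 0.60, without MM 8), Fam20c (−0.43 to 0.031, without No MM 1), Ank (−0.27 to 0.16, without No MM 1, No MM 2, No MM 5 or MM 8), Alpl (−0.54 to 0.56) and Phospho1 (−0.16 to 0.70), both without No MM 3, No MM 4 or MM 6, and Slc20a2 (−0.000495 to 0.15, without No MM 4). The difference of mean log2 CPM turned for Fgf23 (−0.17 to 0.42, without No MM 3 or MM 8), Fam20c (−0.34 to 0.096, without No MM 1, No MM 5 or MM 8), Ank (−0.18 to 0.36, without No MM 3, No MM 4 or MM 6), Alpl (−0.40 to 0.35, without No MM 3, No MM 4, MM 6 or MM 7) and Slc20a2 (−0.0013 to 0.16, without No MM 4). Relative to the osteoblast lineage score it turned for Phex (−0.11 to 0.21, without No MM 1, No MM 5 or MM 7), Slc20a1 (−0.84 to 0.20, without No MM 3, No MM 4 or MM 6) and Galnt3 (−0.74 to 0.10, without No MM 4), and Alpl minus Enpp1 stayed between 0.42 and 1.50. Fgf23 and Phospho1, with as few as 24 and 10 counts in a library, carry the largest counting error.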
